A study of Mus musculus with 6 samples.

Results

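The genes described here are the translation initiation and elongation factors of the mouse, taken by name: every gene of the deposited gene table whose symbol begins with Eif or Eef, without the eIF2 kinases (Eif2ak) and the eIF4E-binding proteins (Eif4ebp). They were 56 of 14665 genes, 48 with an Eif name and 8 with an Eef name. RNA-seq was performed on C17.2 cells, an immortalized line of mouse neural stem cells (NSCs), wild type in both groups. In the hypoxia/reoxygenation (H/R) group the cells had spent 12 h in 5% oxygen and then 48 h in standard oxygen (n = 3 libraries). The control group was kept in standard oxygen throughout (n = 3 libraries). C17.2 is 1 immortalized line, and the sources used here do not tell whether separate cultures were sequenced, so a p-value refers only to variation among the libraries, which may be technical.

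Protein synthesis starts when eIF2 brings the initiator tRNA to the small ribosomal subunit, on which eIF3, eIF1, eIF1A and eIF5 assemble, and when the eIF4 factors bind the cap of the mRNA and unwind its leader. The complex scans to a start codon, eIF5B joins the large subunit, and elongation follows, with eEF1A delivering aminoacyl-tRNA and eEF2 moving the ribosome along. Several factor mRNAs, like those of the ribosomal proteins, begin with a C followed by a run of pyrimidines, the terminal oligopyrimidine (TOP) tract, through which mTOR and LARP1 govern their translation and stability. Phosphorylation of eIF2 alpha and the binding of eIF4E by 4E-BPs are the best-known brakes on initiation under stress.

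Because the TOP tract is the sequence feature for which this family is known, the stretch around the annotated start is shown for 8 members, each with 28 bases before and 22 bases after that start (RefSeq, GRCm38.p6, read 5′ to 3′ on the strand of the gene). Capitals mark every run of a C and at least 4 further C or T letters. The first 4 were lower after H/R and are known TOP mRNAs, the next pair were higher, and the last pair were not called.
Eef2 (chr10:81176603-81176652, plus strand): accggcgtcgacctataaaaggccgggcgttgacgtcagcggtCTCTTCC
Eef1a1 (chr9:78481703-78481752, minus strand): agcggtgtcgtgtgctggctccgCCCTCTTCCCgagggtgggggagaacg
Eif4b (chr15:102073745-102073794, plus strand): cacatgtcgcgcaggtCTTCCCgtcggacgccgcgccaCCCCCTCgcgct
Eif3f (chr7:108934387-108934436, plus strand): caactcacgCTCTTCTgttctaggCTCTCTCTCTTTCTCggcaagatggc
Eif1b (chr9:120492578-120492627, plus strand): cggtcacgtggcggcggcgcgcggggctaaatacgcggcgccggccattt
Eif2b1 (chr5:124579110-124579159, minus strand): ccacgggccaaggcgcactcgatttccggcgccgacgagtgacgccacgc
Eif4g1 (chr16:20672699-20672748, plus strand): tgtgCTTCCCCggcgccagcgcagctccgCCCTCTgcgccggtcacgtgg
Eif2s1 (chr12:78862044-78862093, plus strand): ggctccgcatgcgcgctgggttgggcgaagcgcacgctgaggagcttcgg
The annotated start need not be the base at which transcription began in these cells. The marked run of Eef2 begins at position 16 counted from the annotated start as 1, and that of Eef1a1 begins 5 bases before the start. Whether a marked run is the TOP tract of its mRNA was not tested.

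The deposited counts summed to 15639751 to 16830389 in the H/R libraries and to 7267809 to 8371882 in the control libraries, so the H/R libraries were deeper. Expression is given in CPM, counts as a share of a library brought to 1 common scale by the TMM factors of edgeR, which ran from 1.07 to 1.08 in H/R and from 0.92 to 0.938 in the controls. CPM is a share of the RNA of a library, and in bulk RNA fewer cells of a kind and less RNA per cell cannot be told apart. Of the 9 markers listed for neural stem cells, Nes, Sox2, Msi1 and Vim were analysed, and their summed level was 1641 to 1732 CPM in H/R and 1402 to 1495 CPM in control libraries. The fibroblast or mesenchymal markers, 4 of 5 of which reached 1 CPM, summed to 5610 to 6990 CPM in H/R and 5965 to 8601 CPM in control libraries. Neuronal markers summed to 32.8 to 37.9 CPM in H/R against 73.2 to 81.1 CPM in controls, nearly all of it Map2, with Tubb3 under 1 CPM in every library. Astrocyte and microglial markers summed to at most 1.37 CPM and 0.353 CPM in H/R, and to at most 0.15 CPM and 1.17 CPM in controls. The part of these marker differences in the results below was not tested.

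Of the 56 members, 55 passed the filter on low counts and entered the two-sided quasi-likelihood test of edgeR, fitted on 11104 genes with Benjamini-Hochberg adjustment over all of them. At an adjusted p under 0.05, 27 members were lower after H/R, 4 were higher and 24 were not called. That is 49.1% of the tested members lower and 7.27% higher, beside 19.0% of all tested genes lower and 18.8% higher. Those shares of all tested genes are also the background for each count of a smaller group below at this threshold and scaling. The median log2 fold change of the members was -0.25, and that of all tested genes 0.01. Every H/R library was below every control library for 30 members, against 24.0% of all tested genes, and above every control library for 6 members, against 25.7% of all tested genes. A change of at least 1.5-fold was reached by 16 of the lower members and by 1 of the higher ones. Without scaling factors the median of all genes moved by 0.21 on the log2 scale, 74.4% in place of 49.7% of the called genes were higher, and the members split into 12 higher and 19 lower. The number of higher members was 2 in place of 4 when H/R 1, H/R 2, H/R 3 or control 2 was left out.

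**Figure D1:**
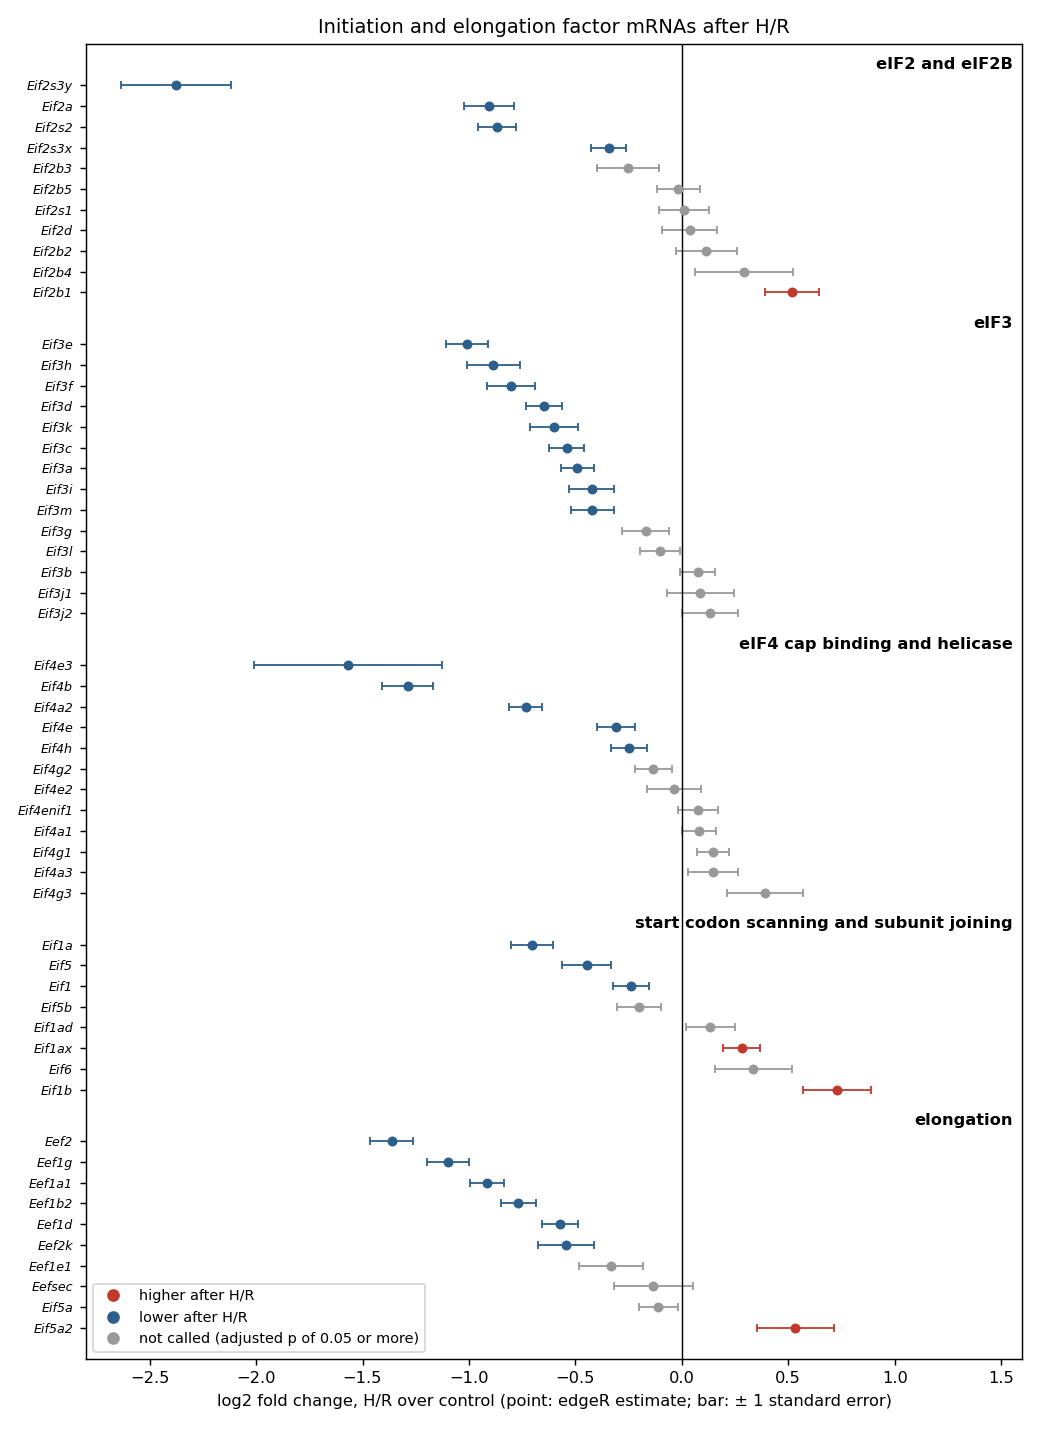
The log2 fold change of H/R over control is plotted for the 55 tested members, grouped by role and ordered by value, with the standard error of the edgeR fit as bars and the call as colour. All elongation factors but Eif5a2 and 11 of the 14 eIF3 genes lie left of 0, with Eef2 at -1.36 and Eif3e at -1.01, while Eif1b at 0.73 is the member farthest to the right.

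The elongation factors held the most abundant mRNAs of the family, and 6 of the 10 genes of this group fell, with a median log2 fold change of -0.56. Eef2, the GTPase that translocates the ribosome (chr10:81176631-81182498, plus strand), had 2993, 2967 and 2709 CPM in the H/R libraries and 6313, 7442 and 8542 CPM in the control libraries. All 3 H/R libraries were close together and far below the controls, which spread more. Eef2 averaged 2889.7 ± 157 CPM after H/R and 7433 ± 1114 CPM in control cells (SD, n = 3 each), 2.57-fold lower after H/R (log2 fold change -1.36, standard error 0.10, adjusted p = 7.15e-07 by edgeR). Eef1a1, which delivers aminoacyl-tRNA to the ribosome (chr9:78478449-78489151, minus strand), had 4369, 4447 and 4512 CPM after H/R and 7637, 8352 and 9147 CPM in the controls. It was also the member with the highest level per length, at 2476 CPM per kb of its longest transcript after H/R and 4670.3 CPM per kb in the controls, and it was 1.89-fold lower after H/R (log2 fold change -0.92, standard error 0.08, adjusted p = 2.11e-06). Its groups did not overlap, and 59.2% of the 50-base stretches of its exons also occur in other annotated genes, mostly pseudogenes, so that the counting of its reads is uncertain.

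The guanine nucleotide exchange complex that recharges eEF1A, made of eEF1B2, eEF1D and eEF1G, fell in all 3 genes. Eef1g, the gamma subunit, had 416, 425 and 442 CPM in H/R libraries and 789, 917 and 1039.9 CPM in control libraries, a log2 fold change of -1.10 (standard error 0.10, adjusted p = 3.25e-06), and shares 64.3% of its 50-base stretches with other genes. Eef1b2 had 179, 173 and 189 CPM in H/R libraries and 299.5, 304 and 318 CPM in control libraries, a log2 fold change of -0.77 (standard error 0.08, adjusted p = 1.38e-05). In both genes the H/R libraries lay below all controls with a wide gap. Eef1d fell by 0.57 on the log2 scale (adjusted p = 0.000152), and Eef2k, the kinase that phosphorylates and slows eEF2, fell by 0.54 (adjusted p = 0.00597) to 26.2 ± 1.61 CPM after H/R, against 38.2 ± 1.52 CPM in controls. Without scaling factors Eef2k was no longer called.

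The eIF5A proteins, which carry the amino acid hypusine and relieve ribosomes stalled on difficult sequences, gave 1 gene that was not called and 1 that was higher. Eif5a had 457, 469 and 426 CPM in H/R libraries and 547, 475 and 438 CPM in control libraries, and the groups overlapped (log2 fold change -0.11, adjusted p = 0.381). Its paralog Eif5a2 was higher after H/R, at 22.7 ± 2.74 CPM against 15.7 ± 2.19 CPM in controls (log2 fold change 0.53, adjusted p = 0.0322). That call was lost when any library but control 3 was left out, with adjusted p from 0.0501 to 0.152, and when the H/R libraries were thinned to the control depth (adjusted p = 0.0654). Eef1e1, a scaffold protein of the multisynthetase complex, and Eefsec, the selenocysteine elongation factor, were not called, with log2 fold changes of -0.33 and -0.13.

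Of the 12 tested eIF4 genes, 5 fell and 0 rose by edgeR, also 0 by DESeq2 and by the exact test of edgeR, with 1 higher at an unadjusted p under 0.05. The count of 5 was 2 without H/R 1 and 3 without H/R 2, H/R 3 or control 2, and 3 without scaling factors, where 5 rose. Eif4b, the cofactor that stimulates the helicase eIF4A (chr15:102073773-102097173, plus strand), had 533, 539 and 540.4 CPM in H/R libraries and 1036, 1369 and 1531 CPM in control libraries. Its H/R libraries differed by under 8 CPM while the controls spread widely, all of them above H/R. The log2 fold change was -1.29 (standard error 0.12, adjusted p = 3.89e-06). Eif4a2, a paralog of the helicase eIF4A1 (chr16:23107444-23114136, plus strand), had 347, 359 and 380.4 CPM in H/R libraries and 596, 595 and 614 CPM in control libraries, a log2 fold change of -0.73 (standard error 0.08, adjusted p = 1.16e-05). Eif4a1 itself, with the highest level per length of the group in H/R (in controls Eif4b had), had 473, 541 and 490.0 CPM in H/R libraries and 466, 481 and 476 CPM in control libraries. Its groups overlapped (log2 fold change 0.08, adjusted p = 0.471), and 65.3% of its 50-base stretches occur in other genes.

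The cap-binding protein gene Eif4e had 124, 119.6 and 125 CPM in H/R libraries and 145, 159.8 and 152 CPM in control libraries, which do not overlap (log2 fold change -0.31, adjusted p = 0.015). That call was lost without scaling factors (adjusted p = 0.404) and when control 2, H/R 1 or H/R 2 was left out, with adjusted p from 0.0584 to 0.0776. Eif4e3, a cap-binding paralog, had 1.43, 3.51 and 2.30 CPM in H/R libraries and 9.92, 7.27 and 4.19 CPM in control libraries (log2 fold change -1.57, standard error 0.44, adjusted p = 0.0135), with adjusted p of 0.0562 without H/R 1 and 0.0511 without H/R 3. The scaffold gene Eif4g1 had 1064, 1086.5 and 1015 CPM in H/R libraries and 975, 939.5 and 948 CPM in control libraries. All H/R libraries of Eif4g1 were above the controls by a small margin that missed the threshold (log2 fold change 0.15, standard error 0.07, adjusted p = 0.143). Eif4h, a cofactor of the helicase like eIF4B, was called lower at a log2 fold change of -0.25, a call that 9 alternatives other than the thresholds removed. Eif4e1b, the oocyte form of eIF4E, was the 1 member that failed the filter, with 1, 0 and 0 counts in H/R libraries and 1, 0 and 0 counts in control libraries. The remaining Eif4a3, Eif4e2, Eif4enif1, Eif4g2 and Eif4g3 were not called, with log2 fold changes from -0.13 to 0.39.

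**Figure D2:**
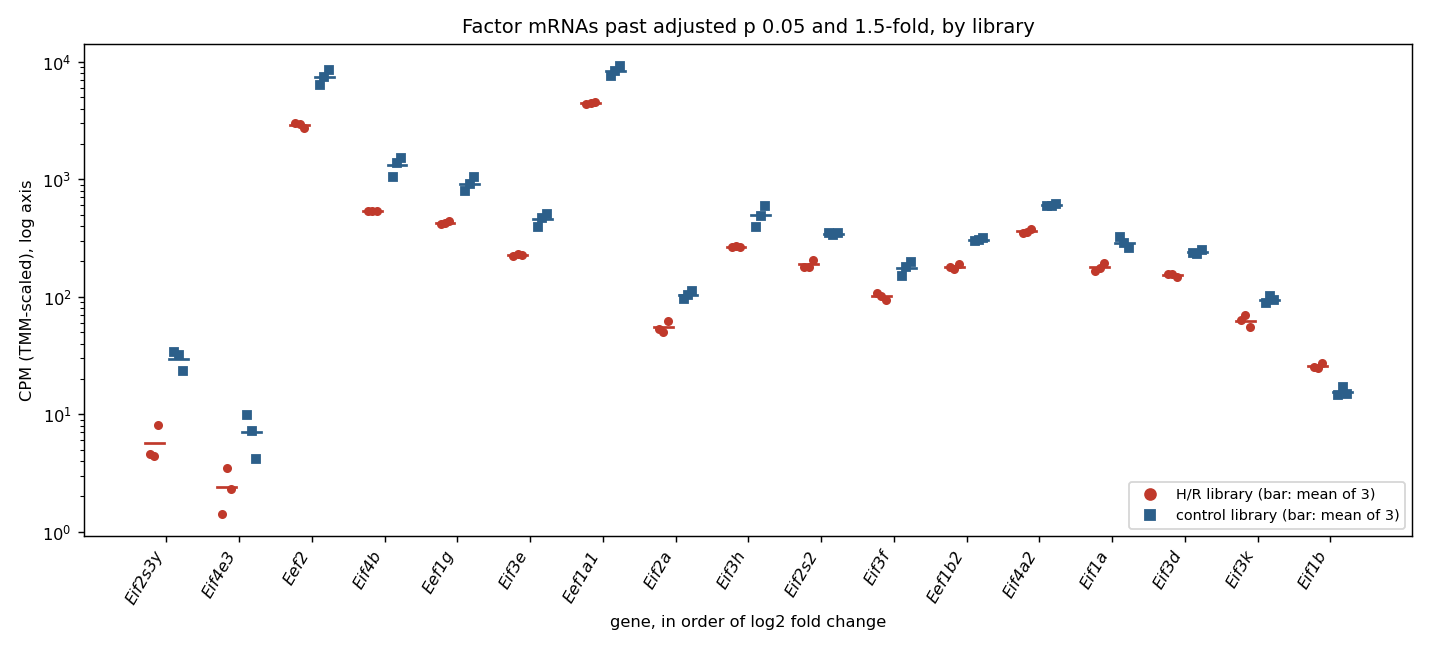
CPM on a log axis is plotted for the 17 members past an adjusted p of 0.05 and a change of 1.5-fold, with 1 point per library, H/R as circles to the left and control as squares to the right, and a bar at each mean. In all 17 genes the 3 H/R points lie on 1 side of the 3 control points, and only Eif1b has its H/R points above. The points run from 1.43 CPM for Eif4e3 in an H/R library to 9147 CPM for Eef1a1 in a control. The genes were chosen for their difference between these same libraries, so this separation adds no support. Of all tested genes, 24.0% had every H/R library below every control library and 25.7% above.

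eIF3, the largest initiation factor, holds the scanning complex together, and 9 of its 14 genes fell while 0 rose by edgeR, DESeq2 or the exact test, also 0 at an unadjusted p under 0.05. The median log2 fold change was -0.46. Eif3e, a PCI-domain subunit of the core (chr15:43250058-43282719, minus strand) had 223, 231 and 226 CPM in H/R libraries and 391, 468 and 509 CPM in control libraries, a log2 fold change of -1.01 (standard error 0.10, adjusted p = 6.48e-06). Eif3h, an MPN-domain subunit and the gene of the group with the highest level per length, had 266, 269 and 263 CPM in H/R libraries and 391, 489 and 598 CPM in control libraries (log2 fold change -0.89, standard error 0.12, adjusted p = 0.00011). Eif3f, the other MPN-domain subunit, had 107, 102 and 93.3 CPM in H/R libraries and 150.2, 179.5 and 198 CPM in control libraries (log2 fold change -0.80, standard error 0.11, adjusted p = 0.00011). In these 3 genes the lowest control library was control 1, and it still exceeded every H/R library. Eif3d, which can bind the cap of some mRNAs itself, had 155, 157 and 146 CPM in H/R libraries and 234, 233 and 249.7 CPM in control libraries (log2 fold change -0.65, adjusted p = 6.72e-05), and 43.3% of its exonic bases overlap the antisense gene Gm17638. Eif3k had 62.9, 69.3 and 54.8 CPM in H/R libraries and 88.5, 101 and 93.5 CPM in control libraries (log2 fold change -0.60, adjusted p = 0.00113). The groups of Eif3d and Eif3k did not overlap either. Eif3c, Eif3a, Eif3i and Eif3m fell by 0.54, 0.49, 0.42 and 0.42 on the log2 scale, the last pair no longer called without scaling factors. In that setting Eif3b was called higher.

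The 5 eIF3 genes that were not called were Eif3b, Eif3g, Eif3j1, Eif3j2 and Eif3l, with log2 fold changes of -0.17 to 0.13. Eif3b, the largest subunit of the module beside the core, had 379 ± 8.76 CPM after H/R and 360.1 ± 24.0 CPM in controls. In a grouping made after the values were seen, 7 of the 8 subunits of the structural octamer (a, c, e, f, h, k, l and m) were lower, with a median log2 fold change of -0.57, and 2 of the 6 genes outside it (Eif3d and Eif3i), with a median of -0.05. Eif3l was the octamer gene that was not called, at a log2 fold change of -0.10. Eif3j1 and Eif3j2 are near-identical, with 91.9% of the 50-base stretches of Eif3j2 found elsewhere, so their counts may be split arbitrarily.

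The genes of eIF2, which carries the initiator tRNA, did not move as 1 unit. Eif2s1, the alpha subunit that the stress kinases phosphorylate, had 137, 141 and 174 CPM in H/R libraries and 138, 169.6 and 141 CPM in control libraries, and the groups overlapped (log2 fold change 0.01, standard error 0.12, adjusted p = 0.956). Eif2s2, the beta subunit (chr2:154871410-154892935, minus strand), had 180.4, 179.8 and 207 CPM in H/R libraries and 351, 336 and 349 CPM in control libraries, a log2 fold change of -0.87 (standard error 0.09, adjusted p = 8.38e-06). The gap between its groups was far wider than the spread within either. The gamma subunit has an X-linked and a Y-linked gene in the mouse. Eif2s3x, with the highest level per length of the group in H/R (in controls Eif2s2 had), had 299, 274 and 285 CPM in H/R libraries and 343, 371 and 376 CPM in control libraries (log2 fold change -0.34, adjusted p = 0.00506), and lost its call without scaling factors. Eif2s3y (chrY:1010543-1028847, plus strand) showed the largest change of the tested members, with 4.62, 4.40 and 8.18 CPM in H/R libraries and 34.0, 31.8 and 23.3 CPM in control libraries (log2 fold change -2.38, standard error 0.26, adjusted p = 1.39e-05). H/R 3 was the highest H/R library and control 3 the lowest control, and none of the 50-base stretches of Eif2s3y occurs elsewhere.

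Beside eIF2, Eif2a, a separate factor that can bring initiator tRNA to non-AUG codons, had 53.4, 50.3 and 62.7 CPM in H/R libraries and 96.1, 103 and 113 CPM in control libraries, again with a clear gap (log2 fold change -0.91, standard error 0.12, adjusted p = 5.21e-05). eIF2B, the exchange factor that reloads eIF2 with GTP, has 5 subunits. Its gene Eif2b1, the alpha subunit, was higher after H/R at 41.8 ± 2.0 CPM against 29.2 ± 1.65 CPM in controls (log2 fold change 0.52, standard error 0.13, adjusted p = 0.00653). The other 4 were not called, with log2 fold changes of -0.25 for Eif2b3, -0.02 for Eif2b5, 0.12 for Eif2b2 and 0.29 for Eif2b4, and 0 of the 5 fell at an unadjusted p under 0.05 or by DESeq2 or the exact test. Eif2d, which delivers tRNA in reinitiation, had a log2 fold change of 0.04.

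Among the factors of scanning, start codon choice and subunit joining, 2 of 8 rose and 3 fell. By the exact test of edgeR 2 fell. Of all tested genes, 18.8% were higher and 19.0% lower. Eif1b, a paralog of the start codon fidelity factor eIF1, had 25.1, 24.8 and 27.4 CPM in H/R libraries and 14.7, 17.0 and 14.8 CPM in control libraries. It was 1.66-fold higher with no overlap between the groups, the largest rise among the members (log2 fold change 0.73, standard error 0.16, adjusted p = 0.00294). Eif1, the member of this group with the highest level per length, had 526, 545 and 559.6 CPM in H/R libraries and 586, 641 and 697 CPM in control libraries (log2 fold change -0.24, adjusted p = 0.0394), a call that 9 alternatives other than the thresholds removed. Eif1a, an autosomal gene for eIF1A (chr18:46597701-46616456, plus strand), had 165, 176 and 192 CPM in H/R libraries and 322, 287 and 259 CPM in control libraries (log2 fold change -0.70, standard error 0.10, adjusted p = 0.000127). Its X-linked paralog Eif1ax moved the other way, at 213 ± 10.5 CPM against 175 ± 7.75 CPM in controls (log2 fold change 0.28, adjusted p = 0.0213), though leaving out any library but control 1 gave adjusted p from 0.0512 to 0.0814. Eif5, which triggers GTP hydrolysis by eIF2, fell by 0.45 (adjusted p = 0.0081) and was not called without scaling factors. Eif5b, which joins the subunits, Eif6, which keeps them apart, and Eif1ad were not called, with log2 fold changes of -0.20, 0.34 and 0.13. Without scaling factors Eif6 and Eif1ad were called higher, while Eif1 and Eif5 lost their calls.

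The ratio of paralogs within a library does not depend on the scaling between libraries, and 9 pairs could be compared. With 3 libraries against 3, the two-sided exact permutation test cannot give a p under 0.1. Eif4a1 over Eif4a2 counts were 1.36, 1.51 and 1.29 in H/R libraries and 0.781, 0.809 and 0.775 in control libraries, a log2 difference of 0.81 (exact permutation p = 0.1, 0.129 adjusted over the 9 pairs). The count of Eif4a1 was thus above that of Eif4a2 in every H/R library and below it in every control library. Counts also depend on transcript length, so a ratio above or below 1 does not rank the mRNAs of a pair. Per kb of the longest transcript, Eif4a1 was above Eif4a2 in both groups. The levels were 282 against 134 CPM per kb in H/R and 267 against 222 CPM per kb in controls. Eif1ax over Eif1a was 1.27, 1.17 and 1.17 in H/R libraries and 0.571, 0.606 and 0.65 in control libraries. Per kb, Eif1ax was below Eif1a in both groups, at 41.2 against 62.0 CPM in H/R and 33.9 against 101 CPM in controls. Eif1 over Eif1b was 21.0, 21.9 and 20.4 in H/R libraries and 39.9, 37.7 and 47.01 in control libraries. Eif2s3x over Eif2s3y was 64.8, 62.3 and 34.9 in H/R libraries and 10.1, 11.7 and 16.1 in control libraries. These 3 pairs, with Eif5a over Eif5a2, Eif4e over Eif4e2 and Eif4g1 over Eif4g2, had groups that did not overlap and the same exact p of 0.1. Each of them had the same 0.129 after adjustment over the 9 pairs. Ratios of genes called above partly restate those calls, and how often other gene pairs separate was not tested. Eif4g3 over Eif4g1 (exact p = 0.2) and Eif3j1 over Eif3j2 (exact p = 0.7) overlapped.

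**Figure D3:**
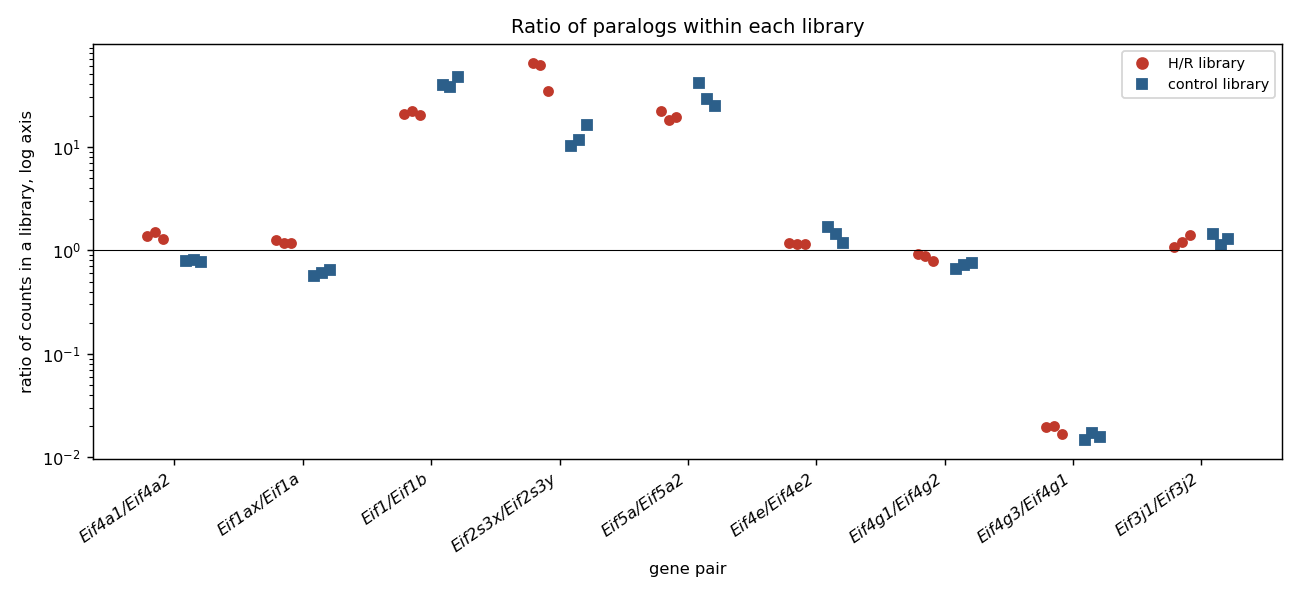
The ratio of the raw counts of both genes of a pair is plotted on a log axis for each library, H/R as circles to the left and control as squares to the right, with a line at equal counts. Eif4a1 over Eif4a2 and Eif1ax over Eif1a lie above the line in H/R, at 1.17 to 1.51, and below it in the controls, at 0.571 to 0.809. The counts are not divided by transcript length, so the line does not mark equal mRNA levels.

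The 56 members took 1.91%, 1.95% and 1.93% of all gene counts in the H/R libraries and 2.54%, 2.80% and 2.96% in the control libraries, and the groups did not overlap. Most of that difference lay in a few abundant mRNAs: Eef1a1 and Eef2 together held 40.1% to 41.6% of the counts of the members in H/R and 50.8% to 54.9% in controls. In a grouping made after the values were seen, 9 members listed as known TOP mRNAs (Eef1a1, Eef1b2, Eef1d, Eef1g, Eef2, Eif3e, Eif3f, Eif3h and Eif4b) were all lower after H/R, with a median log2 fold change of -0.92. They took 0.993% ± 0.0123 of the gene counts in H/R and 1.83% ± 0.22 in controls (SD, n = 3 each). The other 47 members took 0.938% ± 0.0197 in H/R and 0.942% ± 0.013 in controls, and of the 46 tested among them 18 were lower, 4 were higher and 24 were not called, with a median log2 fold change of -0.13. Since the grouping followed the values, it carries no test. In all 9 TOP genes control 1 was the lowest and control 3 the highest control library, an order found in 21.9% of all tested genes, so the size of their falls depended on the control library while the H/R libraries agreed closely. The 9 calls held whichever library was left out.

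**Figure D4:**
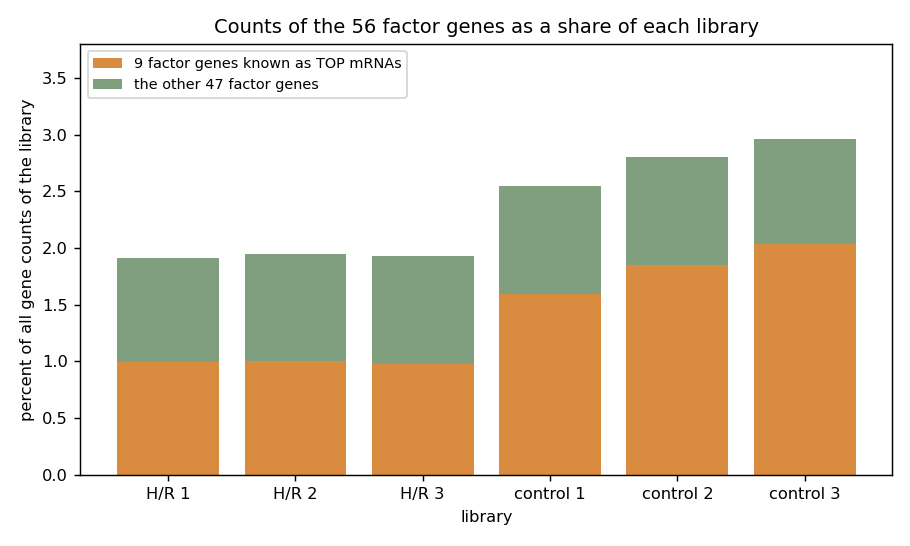
The stacked bars give the percent of all gene counts of a library, without scaling, that fell on the 9 factor genes listed as known TOP mRNAs and on the other 47 factor genes, for the 3 H/R libraries and then the 3 control libraries. The lower segment is 0.979% to 1.00% in H/R and 1.597% to 2.03% in controls, while the upper segment is between 0.915% and 0.952% in all 6 libraries.

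The RefSeq promoter windows (250 bases before and 50 after each start) were searched for 4 motifs. Of the 56 members, 44 had a window. A C with at least 4 further pyrimidines, beginning within 5 bases of the annotated start on the sense strand, was found in 10 of them, 22.7%, against 22.005% of the tested genes with a window. Of these 10, 4 were lower and 0 higher, with a median log2 fold change of -0.06, and of the other 34, 16 were lower and 4 higher, with a median of -0.22. Of the 9 listed TOP mRNAs, 5 had a window and 2 a match, Eef1a1 and Eif3f. The marked runs of Eef2 and Eif4b printed above lie outside that narrow search. A match near the annotated start need not be the TOP tract of the mRNA. The E-box CACGTG, which MYC and related factors can bind, occurred on either strand in 12 of the 44 members, 27.3%, against 11.9% of the tested genes with a window. The 12 were Eef2, Eef2k, Eif1b, Eif3a, Eif3f, Eif3k, Eif4a1, Eif4e, Eif4g1, Eif4h, Eif5a and Eif5a2, of which 7 were lower and 2 higher, so that both directions and uncalled genes are among them. It can be read in the stretches of Eif1b and Eif4g1 above. GCGCATGC, the core of the NRF1 motif, was found in 5 members, 11.4%, against 6.42% of the tested genes, and TGATGNAA, a motif of ATF4 with a C/EBP partner, in 2 members, Eef2k and Eif2s3x, 4.55% against 2.63% of the tested genes and 4.51% of all genes with a window. A match is a description of these letters, not a bound site.

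Outside the family, 60 further genes of the translation machinery were followed, of which 57 were tested, and 14 fell and 5 rose. That is 24.6% lower and 8.77% higher, beside 19.0% and 18.8% of all tested genes. These counts were 9 lower without H/R 1, and 9 lower and 3 higher without H/R 2. Without scaling factors the balance turned, with 9 lower and 11 higher: Eif2ak2, Nck1, Ddx3x, Paip2 and Etf1 lost their calls (adjusted p from 0.139 for Nck1 to 0.852 for Ddx3x), and Abcf1, Cyfip1, Denr, Gspt1, Mtif3 and Tufm were called higher. Of the 9 genes that set the phosphorylation of eIF2 alpha, 4 fell and 1 rose. Ppp1r15a, the stress-induced subunit that directs a phosphatase to eIF2 alpha, was at 91.2 ± 1.33 CPM after H/R against 377 ± 121 CPM in controls (log2 fold change -2.05, adjusted p = 3.05e-06). The kinase genes Eif2ak3 (PERK) and Eif2ak2 (PKR) fell by 0.74 and 0.30 on the log2 scale, and Eif2ak4 (GCN2) was higher by 0.33. Eif2ak1 (HRI) had 84.3 ± 3.49 CPM after H/R and 85.6 ± 8.22 CPM in controls and was not called, and Nck1, an adaptor in the dephosphorylation of eIF2 alpha, fell by 0.44.

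Of the 11 tested genes around the 4E-BPs and mTOR output, 3 rose and 2 fell, beside 18.8% of all tested genes higher and 19.0% lower. Eif4ebp1 and Eif4ebp2, which encode inhibitors that hold eIF4E off the cap, moved in opposite directions: Eif4ebp1 was at 88.8 ± 8.29 CPM after H/R against 148 ± 3.92 CPM in controls (log2 fold change -0.73, adjusted p = 8.27e-05), and Eif4ebp2 at 139 ± 7.72 CPM after H/R against 81.6 ± 6.43 CPM in controls (log2 fold change 0.77, adjusted p = 6.19e-05). Eif4ebp3 was under 1.2 CPM in every library and was not tested. The eIF4E kinase genes did likewise, with Mknk1 lower by a log2 fold change of -0.99 and Mknk2 higher by 0.62, and Pdcd4, an inhibitor of eIF4A, was higher by 0.46. Larp1, which binds TOP mRNAs, had 406 ± 6.20 CPM after H/R and 418 ± 32.3 CPM in controls and was not called.

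Of the 15 genes for poly(A)-binding proteins and auxiliary initiation factors, 6 fell and 1 rose. Pabpc1 was at 1921 ± 168 CPM after H/R against 2789 ± 149.9 CPM in controls (log2 fold change -0.54), Pabpc4 fell by 0.71, Tpt1 by 0.60 and Bzw2 by 0.65 on the log2 scale, and Bzw1, a paralog of Bzw2 that competes with eIF5, was higher by 0.66. Of the 5 tested termination and recycling genes, Etf1 fell by 0.33 and the other 4 were not called, while without scaling factors Etf1 was not called (adjusted p = 0.318) and Gspt1 was higher by 0.32 (adjusted p = 0.0213). Of the 8 tested genes for the synthesis of hypusine and diphthamide, the modified residues of eIF5A and eEF2, Dph6 fell by 1.05 and the other 7 were not called. By the exact test 3 of the 8 were lower, and 3 also were at an unadjusted p under 0.05 in the main fit. With TMM scaling in edgeR, by DESeq2 and by the exact test, none of the 9 mitochondrial translation factor genes was called, and 0 reached an unadjusted p under 0.05 in the first of these, with log2 fold changes from -0.05 for Mtif2 to 0.44 for Mtif3. Without scaling factors Tufm was called higher at 0.45 (adjusted p = 0.013) and Mtif3 at 0.66 (adjusted p = 0.044).

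The circRNA table held 12 circular RNAs of 10 members among 2805, all with few junction reads. The one at chr3:138546321-138555491 within Eif4e had 0, 0 and 0 junction reads in H/R libraries and 5, 4 and 2 in control libraries. None of the 12 had more than 5 reads in any library, and such counts carry no comparison.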

How the data were processed

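RNA of 3 H/R and 3 control libraries of C17.2 cells was sequenced after removal of ribosomal RNA. The authors used cutadapt 1.9.3 for trimming and HISAT2 2.0.4 for alignment to mm10, and deposited raw counts per gene from HTSeq 0.9.1. The circRNA and lncRNA tables hold deposited counts per junction and per transcript. The strand setting and the annotation release are not given in the sources used here. Another 18 columns of values per sample were not used.

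All genes were fitted together in R 4.3.3 with edgeR 4.0.16 (filterByExpr, TMM, quasi-likelihood test, group as the only term), and p was adjusted over 11104 genes. The coefficient of variation between replicates was 0.144. No library duplicated another: replicates differed by a chi-square of 8.67 to 28.7 per degree of freedom. Coordinates, shared 50-base stretches and exon overlaps came from GENCODE vM21 (GRCm38, the same sequence as mm10), in which all 56 members were found. Amplified reads carry no molecular identifiers and may repeat a molecule. Values per library are given for members past an adjusted p of 0.05 and 1.5-fold, for the member with the highest level per length in each role group, for Eif2s1, Eif4e, Eif4g1, Eif5a, Eef1a1 and Eef2, and for the member that failed the filter. Of the other translation genes, up to 4 per group and direction with the smallest adjusted p were named, with the eIF2 kinases and 4E-BPs. Larp1, the mitochondrial factors, genes whose call changed without scaling factors and the lncRNA transcripts were named after their values were seen. The members and the gene lists were chosen with earlier results of these data known. The test was first tried on simulated counts. Alternatives were DESeq2 1.42.0, the exact test, other scalings, filters and thresholds, a replicate block, thinned H/R libraries, offsets for length and GC content (splines with 5 degrees of freedom), and each library left out. The level of 1 list of cell type markers is not reported here.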

Additional observations from a re-analysis of the deposited data

Results flagged for a closer look

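The lncRNA table was used in no comparison of the report. It lists 63 transcripts beside members, of which 12 had at least 10 counts in every library. Among these 12, 2 had every H/R library above every control library relative to the total of that table, and 1 of them, ENSMUST00000135020 at Eif4a2, was at least 2 times higher. Of all 3020 transcripts of the table with at least 10 counts in every library, 14.4% had every H/R library above every control library, and 4.9% also had a mean at least 2 times higher. It had 76, 75 and 58 counts in H/R libraries and 15, 20 and 12 counts in control libraries, or 59.1 ± 7.65 CPM of that table in H/R and 24.9 ± 6.21 CPM in controls (SD, n = 3 each), a ratio of 2.37. It was singled out because the signal in H/R exceeded the control level in a table outside the main measurement. The transcript overlaps the exons of Eif4a2 on the same strand, and the gene count of Eif4a2 was lower after H/R, at 362 ± 17.1 CPM against 602 ± 10.4 CPM in controls. The transcript value is a share of its own table without TMM factors, while the gene value is TMM-scaled, so the scales differ. The other transcripts at Eif4a2, ENSMUST00000142031 and ENSMUST00000148085, had under 10 counts in some libraries and ratios of 3.96 and 0.676. The difference in direction between transcript and gene was not tested.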

How the results depend on the processing

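Of the 27 members called lower, 18 kept the call under every alternative other than a changed threshold, as did 2 of the 4 called higher, Eif1b and Eif2b1, and no member reversed under any of the 18 alternatives. Without scaling factors 12 members were higher and the member median was -0.0349, with 3704 genes higher and 1272 lower in all. There 8 members lost a call and 8 gained one, all in the higher direction (Eif1ad, Eif3b, Eif4a1, Eif4a3, Eif4enif1, Eif4g1, Eif4g3 and Eif6). At an adjusted p under 0.01, 2 members and 1353 of all genes were higher. At an unadjusted p under 0.05 with at least 2-fold, 6 members were lower and 0 higher, with 596 and 646 of all genes. Leaving out 1 library at a time gave 2 to 4 members higher and 23 to 27 lower. The sources used here do not tell whether the replicate numbers pair the libraries. The correlations of same-numbered deviations were 0.0389, 0.0073 and 0.0254. Every library did correlate best with its own number, which is a hint from the data and not the design. With the replicate block 26 members were lower and 4 higher, Eif4h losing its call (adjusted p = 0.0552). H/R libraries were about as deep again as the controls, and thinning them to 8210400 counts kept 27 lower and 3 higher. Low counts limit Eif4e3 and Eif2s3y.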

Other observations

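Eif2s3y was not the only Y-linked gene that was lower after H/R. Of the 7 genes of the table on that chromosome, chosen after the values were seen, Ddx3y had a log2 fold change of -1.39 (adjusted p = 1.79e-05 by edgeR) and Uty -1.44 (adjusted p = 2.53e-05). Kdm5d at -1.58 missed the threshold (adjusted p = 0.139), with only 2, 19 and 22 counts in H/R libraries and 38, 10 and 9 in control libraries. Gm20775 at -0.28 (adjusted p = 0.668) and Gm21857 at 0.52 (adjusted p = 0.571) were not called either, and Erdr1 was not tested. Ddx3y had 16.4, 20.6 and 23.7 CPM in H/R libraries and 53.1, 48.8 and 57.2 CPM in control libraries, without overlap. The X-linked paralog of Ddx3y, Ddx3x, was at 450.2 ± 40.7 CPM after H/R against 530.2 ± 16.7 CPM in controls, a log2 fold change of -0.24.

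The cytosolic ribosomal protein genes, which also carry TOP tracts, were counted after the values were seen: 76 of 81 tested genes with Rpl, Rps or Rplp names were lower and 1 was higher, and their median was -0.84 on the log2 scale. The 9 listed TOP mRNAs among the factors had a median of -0.92 in the same fit, which shares its libraries with this count.

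The members were also divided by how far their sequence is shared. Of the 27 that share under 5% of their 50-base stretches and overlap other exons by at most 5%, 11 were lower and 3 higher, with a median log2 fold change of -0.17, and of the other 28 tested, 16 were lower and 1 higher, with a median of -0.33. Whether reads from pseudogenes had a part in this was not tested.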
